A study of Drosophila melanogaster with 2 samples.

Results

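The vacuolar ATPase genes of Drosophila melanogaster were examined for binding of nerfin-2 at their promoters. The members were the protein-coding genes of the Ensembl 115 annotation whose symbol starts with Vha, and they numbered 33 of 13968 protein-coding genes on the analysed chromosome arms. They encode 14 kinds of subunit, and several subunits have up to 5 gene copies. The data are anti-GFP chromatin immunoprecipitation and sequencing (ChIP-seq) of whole embryos aged 8 to 24 h from a transgenic strain, nerfin-2-GFP, that carries an insertion of nerfin-2 fused to eGFP. Both samples, labelled biological replicates 1 and 2, belong to this 1 group, and chromatin was sonicated with a stated size range of 200 to 800 bp. Every sample carries the fusion, and the sources used here do not state what drives it. The control experiment named in the labels was not analysed here, and no expression was measured. Whole embryos mix all cell types, so a summit cannot be assigned to a tissue, and the lists give no read depth.

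The V-ATPase is a rotary pump that acidifies lysosomes, endosomes and secretory vesicles and also works at the plasma membrane of some epithelia. Its cytosolic V1 sector hydrolyses ATP and turns a rotor, and its membrane V0 sector carries protons through a ring of proteolipid subunits. In flies many subunits are encoded by 1 widely used copy and by further copies with narrower expression, such as copies used in the testis. Like its relative nerfin-1, which acts in newborn neurons, nerfin-2 carries zinc fingers.

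Promoter sequence at 5 of the called summits is shown first, because the summits differ in whether they sit at the V-ATPase gene's own start or at the start of its neighbour. Each run is 101 bp of the Release 6 (dm6) genome centred on the summit and read 5′ to 3′ along the strand of the V-ATPase gene. A single capital marks the position of the first transcribed base of an annotated gene. In Vha16-5 that position belongs to CG12299, in VhaM9.7-b to COX8, and in VhaPPA1-1 to VhaPPA1-1 itself. CG12299 and COX8 are read from the opposite strand, so their capital is the complement of their first base. The runs of Vha68-1 and Vha26 hold no start site. The runs lie at chr2L:10737261-10737361 (Vha16-5, minus strand), chr2L:13004153-13004253 (Vha68-1, minus), chr3R:14904044-14904144 (VhaPPA1-1, minus), chr3L:21539418-21539518 (VhaM9.7-b, plus) and chr3R:5591507-5591607 (Vha26, plus). None of the 5 runs holds the letters ATCGAT, and their GC content ranged from 33.7% in Vha68-1 to 55.4% in Vha16-5.
Vha16-5: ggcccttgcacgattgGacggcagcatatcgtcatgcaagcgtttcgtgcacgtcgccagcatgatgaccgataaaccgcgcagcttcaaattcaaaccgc
Vha68-1: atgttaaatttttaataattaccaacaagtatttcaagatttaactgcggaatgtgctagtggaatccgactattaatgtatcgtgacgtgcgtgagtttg
VhaPPA1-1: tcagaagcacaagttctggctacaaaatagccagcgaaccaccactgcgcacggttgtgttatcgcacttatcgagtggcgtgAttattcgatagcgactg
VhaM9.7-b: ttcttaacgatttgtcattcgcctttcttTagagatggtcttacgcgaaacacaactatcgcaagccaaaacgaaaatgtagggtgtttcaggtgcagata
Vha26: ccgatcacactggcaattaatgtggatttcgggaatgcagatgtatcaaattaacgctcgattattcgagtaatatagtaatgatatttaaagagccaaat

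The DNA replication-related element (DRE), TATCGATA, is bound by the transcription factor Dref at many fly housekeeping promoters. It is shown for the 2 V-ATPase promoters that hold it, one with a conservative summit and one without. The runs are 50 bp with the element in capitals, at chr2L:16727821-16727870 for VhaSFD and chr3R:12627990-12628039 for Vha55, both on the minus strand. The element begins 23 bp before the start of VhaSFD and 189 bp before that of Vha55.
VhaSFD: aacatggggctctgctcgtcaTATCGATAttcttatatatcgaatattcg
Vha55: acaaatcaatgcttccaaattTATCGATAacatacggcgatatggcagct

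The question was which V-ATPase genes carry a nerfin-2 summit at their start, and whether gene copies of the same subunit differ. A gene was called when it had a peak summit no more than 500 bp from one of its transcription start sites (TSSs). The main list was the authors' conservative thresholded list across both replicates, in which the irreproducible discovery rate (IDR) reached at most 0.01. It held a summit at 9 of 33 V-ATPase genes, or 27.3%, beside 19.4% of all protein-coding genes. The authors' second list across replicates also called 9 (27.3%), beside 21.4% of all genes. Replicate 1 alone called 10 (30.3%), beside 18.0%, and replicate 2 alone called 5 (15.2%), beside 13.6%. The background shares correspond to 6.40, 7.06, 5.94 and 4.49 of 33 genes in these 4 lists, so replicate 2 called about as many members as its background and the other lists called 2 to 4 more. Nearly all members had some weak call, since the relaxed ranked list behind the conservative list had a summit at 30 of 33, beside 84.6% of all genes. Among genes with a relaxed summit, 9 of 30 members were called, beside 22.9% of such genes.

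**Figure D1:**
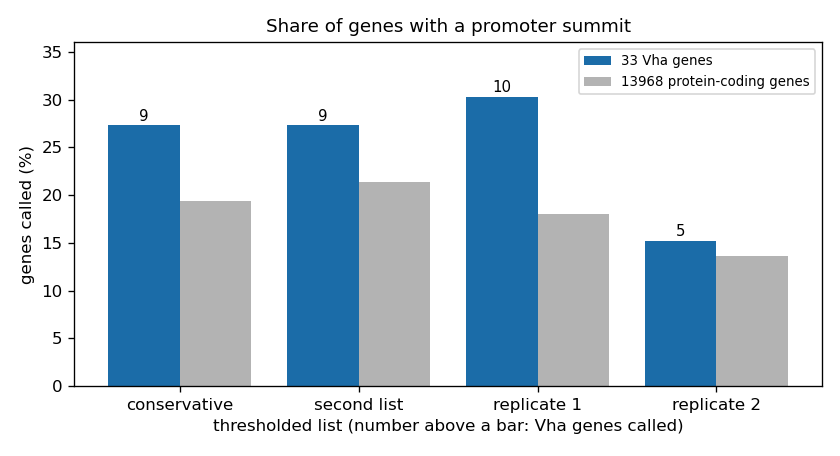
Bars give the percentage of the 33 V-ATPase genes and of the 13968 protein-coding genes with a summit within 500 bp of a TSS in each thresholded list, and the number over a bar counts the V-ATPase genes called. The V-ATPase share ranges from 15.2% in replicate 2 to 30.3% in replicate 1, against 13.6% and 18.0% of all genes.

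Of the 33 genes, 4 were called in all 4 thresholded lists, namely Vha16-1, Vha16-5, Vha68-1 and VhaSFD. Another 4 were called in 3 lists (Vha26, Vha36-1, Vha68-2 and VhaM9.7-b), VhaPPA1-1 in 2, and Vha13, Vha44 and VhaM9.7-a in 1 each. The remaining 21 genes had no thresholded summit in any list. None of the 9 conservative summits was among the 500 strongest peaks, and their ranks by signal ran from 504 to 2496 of 2793. The signal is the peak caller's own value, taken as the authors gave it. Each gene's value is the highest within 500 bp of its starts in a list, so values of the replicates can come from different summits. The relaxed values of Vha14-2, Vha16-4 and VhaAC39-2 are such cases. The 9 summits had a median signal of 101, below the median of 148 for all genes with a conservative summit.

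Copies that most cells use and copies of narrower use were set apart by a list drawn from general knowledge of the fly V-ATPase, not from expression in these embryos, and with earlier results of these data known. Of the 14 widely used copies, 7 had a conservative summit, and of the 19 other copies, 2 did (10.5%), Vha68-1 and Vha16-5, beside the 19.4% of all genes. The place of Vha100-2 and VhaAC45 in the list is a matter of judgement, and with both moved the counts were 7 of 12 and 2 of 21. In replicate 2 alone, 3 widely used and 2 other copies were called, beside 13.6% of all genes, so the contrast was smaller there. With a window of 250 bp, with the nearest TSS only or with intervals that overlap the TSS, the other copies fell to 1, Vha68-1. The widely used copies fell as well, to 6, 5 and 5 in these settings. The share of all genes fell to 16.9%, 14.5% and 15.6%. The highest relaxed signal at each gene had a median of 69.4 over 13 widely used copies and of 35.2 over 17 other copies, beside 45.4 over all 11817 genes with a relaxed summit. The ranges overlapped, from 13.1 to 174 in the widely used copies and from 3.52 to 226 in the others. By sector, 5 of 13 V1 genes (38.5%) and 4 of 18 V0 genes (22.2%) had a conservative summit, beside the 19.4% of all genes, and neither of the 2 accessory genes did. In replicate 2 alone the counts were 2 V1 and 3 V0 genes. These counts describe the members and were not tested.

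**Figure D2:**
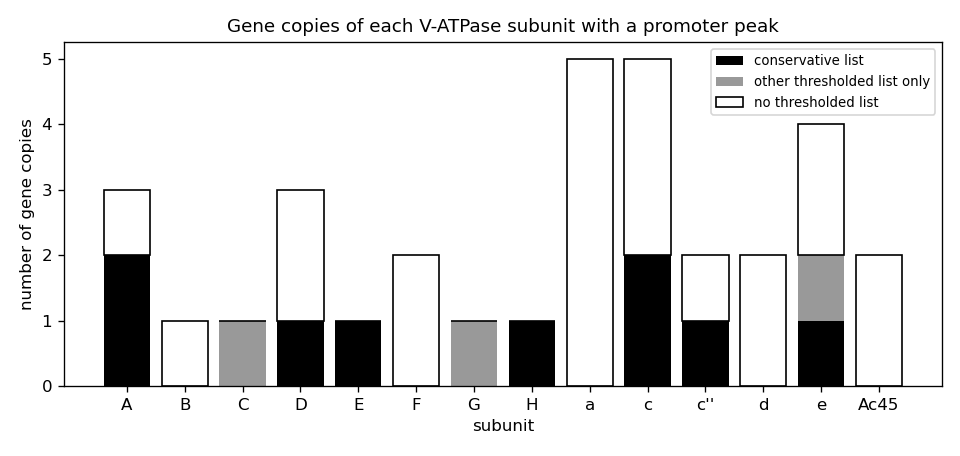
Each bar is a subunit and its height the number of gene copies, split into those with a conservative summit, those called only in another thresholded list and those in no thresholded list. Subunits a and c have 5 copies each, and c has 2 with a conservative summit while a has none. Over all protein-coding genes the share is 19.4%. The Vha16-5 summit of subunit c lies nearer the start of CG12299.

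Subunit A is the catalytic subunit that hydrolyses ATP, and 2 of its 3 copies had a conservative summit, beside 19.4% of all genes. The copies lie in a row on chromosome arm 2L, with the nearest annotated starts of Vha68-2 and Vha68-3 3384 bp apart and those of Vha68-3 and Vha68-1 25321 bp apart. At Vha68-1 the signal was 84.8 in replicate 1 and 67.2 in replicate 2, with 164 in the conservative peak at chr2L:13004003-13004402 and an IDR of 0.000883. At Vha68-2, the widely used copy, the highest signal was 53.2 in replicate 1 and 37.5 in replicate 2. The conservative peak at chr2L:12974149-12974548 had 87.3, with an IDR of 0.00437. The 53.2 of replicate 1 came from a summit outside that peak, within which replicate 1 had 51.3. Both replicates thus had the higher value at Vha68-1. Vha68-3 had only relaxed calls of 8.91 in replicate 1 and 27.1 in replicate 2. They lay 474 bp and 336 bp past its start, so their order between replicates does not compare 1 site.

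Vha68-2 has 5 annotated start sites and carried 2 separate summits 602 bp apart. The upstream summit lay 27 bp past the first start site, in the 5′ untranslated region of the transcript that begins there, and 15 bp before the next start site. It gave signals of 51.3 in replicate 1 and 37.5 in replicate 2. The downstream summit lay 235 bp before a later start site in the pooled calls and gave 53.2 and 28.7. Replicate 1's thresholded list kept the downstream summit alone, while the conservative list kept the upstream one, and the second list kept both. The 2 summits of this gene therefore did not have the same order of signal in the replicates, and the differences in replicate 1 were small.

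Each of the other V1 subunits had 1 copy or none called. Subunits B, C, E, G and H have only 1 gene each, so no other count was possible for them. Subunit H, the regulatory subunit encoded by VhaSFD, had signals of 116 in replicate 1 and 65.1 in replicate 2, and 174 in the conservative peak at chr2L:16727642-16728041, with an IDR of 0.000572. This was the highest signal among V1 genes in replicate 1, while in replicate 2 it was just under Vha68-1. Subunit E of the peripheral stalk, Vha26, had 61.8 and 33.8, and 82.1 in the conservative peak at chr3R:5591357-5591756, with an IDR of 0.00533. Replicate 2 gave Vha26 an IDR of 0.196, so that replicate alone did not call it. The conservative summit lay nearer the start of noi, 98 bp away, than that of Vha26, 206 bp away.

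Subunit D forms the central rotor stalk and has 3 copies. Vha36-1, the widely used copy, had signals of 46.4 in replicate 1 and 32.99 in replicate 2, and 69.4 in the conservative peak at chr2R:15541237-15541636, the lowest of the 9, with an IDR of 0.0075. Vha36-2 had relaxed calls of 5.11 and 11.1 and Vha36-3 of 17.9 and 16.1, all under both values of Vha36-1. Subunit F, also of the rotor stalk, had no called copy. Vha14-1 had 24.6 in replicate 1 and no call in replicate 2, and Vha14-2 had 17.5 and 15.4.

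Subunits B, C and G are each encoded by 1 gene and had no conservative summit. Vha55, the nucleotide-binding subunit B, had relaxed signals of 37.8 in replicate 1 and 14.4 in replicate 2, and no thresholded list called it. Its pooled signal of 51.1, with an IDR of 0.606, was the third highest of the 21 genes in no list. Vha44, subunit C, had 28.4 and 26.3, close in both replicates, and 42.2 pooled with an IDR of 0.071. The second list called Vha44 at an IDR of 0.00756, at a summit that lay 115 bp from the start of Hmgs, the gene of an HMG-CoA synthase. Vha13, subunit G of the peripheral stalk, was called in replicate 1 alone, at 54.4, and had 6.87 in replicate 2 and 47.6 pooled with an IDR of 0.681. The highest values of the replicates thus stood further apart at Vha13 than at Vha44, but they came from different positions. At Vha13 they lay 79 bp before the start in replicate 1 and 436 bp past it in replicate 2. At Vha44 they lay 252 bp and 362 bp before the nearest start.

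In the V0 sector, subunit c forms the proton-carrying ring. Of its 5 copies, 2 had a conservative summit, beside 19.4% of all genes. Vha16-1, the widely used copy, had signals of 71.4 in replicate 1 and 82.7 in replicate 2, and 149 in the conservative peak at chr2R:6632972-6633371, with an IDR of 0.000895. Vha16-5 had 117 and 96.5, and 226 in the conservative peak at chr2L:10737111-10737510, with an IDR of 0.000287. It was the strongest summit of any V-ATPase gene in both replicates, though in replicate 1 the value of VhaSFD was nearly equal. The Vha16-5 summit lay nearer the start of CG12299, 34 bp away, than that of Vha16-5, 268 bp away. The other c copies were far lower in both replicates. Vha16-3 had 12.2 and 5.66, Vha16-4 had 7.97 and 14.7, and Vha16-2, which starts 1572 bp from Vha16-3, had no relaxed call within 500 bp in any list.

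Subunit c'' is a further proteolipid of the ring. VhaPPA1-1, the widely used copy, had 54.6 in replicate 1 and 30.9 in replicate 2, and 101 in the conservative peak at chr3R:14903894-14904293. Its call was the least firm of the 9, since its IDR was 0.00906 in the conservative list and 0.637 in the ranked list behind the second list, where the signal was the same. Replicate 2 gave it an IDR of 0.799. VhaPPA1-2, which starts 3784 bp away, had a relaxed call of 6.15 in replicate 1 and none in replicate 2.

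Subunit a, which lines the proton path and directs the pump to its membrane, had 5 copies and no thresholded summit. The relaxed values ran from 5.50 to 27.1 in replicate 1 and, over the 4 copies with a call, from 8.37 to 26.3 in replicate 2. The highest pooled value was that of Vha100-3, 47.2 with an IDR of 0.149, from 22.9 and 26.3 in the replicates. Vha100-2, taken here as widely used, had 26.5 in replicate 1 and no call in replicate 2. Subunit d links the ring to the stalk, and its widely used copy VhaAC39-1 had no relaxed call within 500 bp in any list. VhaAC39-2 had 34.1 and 16.4. Both subunits were thus without a called copy in either replicate.

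Subunit e is a small membrane protein with 4 copies, of which VhaM9.7-b had a conservative summit. Its signals were 48.4 in replicate 1 and 49.4 in replicate 2, and 98.3 in the peak at chr3L:21539268-21539667, with an IDR of 0.003. That summit lay nearer the start of COX8, 21 bp away, than that of VhaM9.7-b, 394 bp away. VhaM9.7-a had the higher value in replicate 1, at 64.4, where it was called, and 23.2 in replicate 2, where it was not. Its pooled signal of 86.7 exceeded those of Vha26 and Vha36-1, which were called, but its IDR of 0.0964 did not pass, so the signal alone did not decide the conservative list. VhaM9.7-c had 19.5 and 19.3, and 56.7 pooled with an IDR of 0.302, the highest pooled signal of the 21 genes in no list. VhaM9.7-d had 24.4 and 17.1, and 43.7 pooled with an IDR of 0.325. Of the accessory subunit Ac45, VhaAC45 had 34.7 and VhaAC45RP 22.5 in replicate 1, and neither had a call in replicate 2. The pooled signal of VhaAC45 was 51.6, with an IDR of 0.396.

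**Figure D3:**
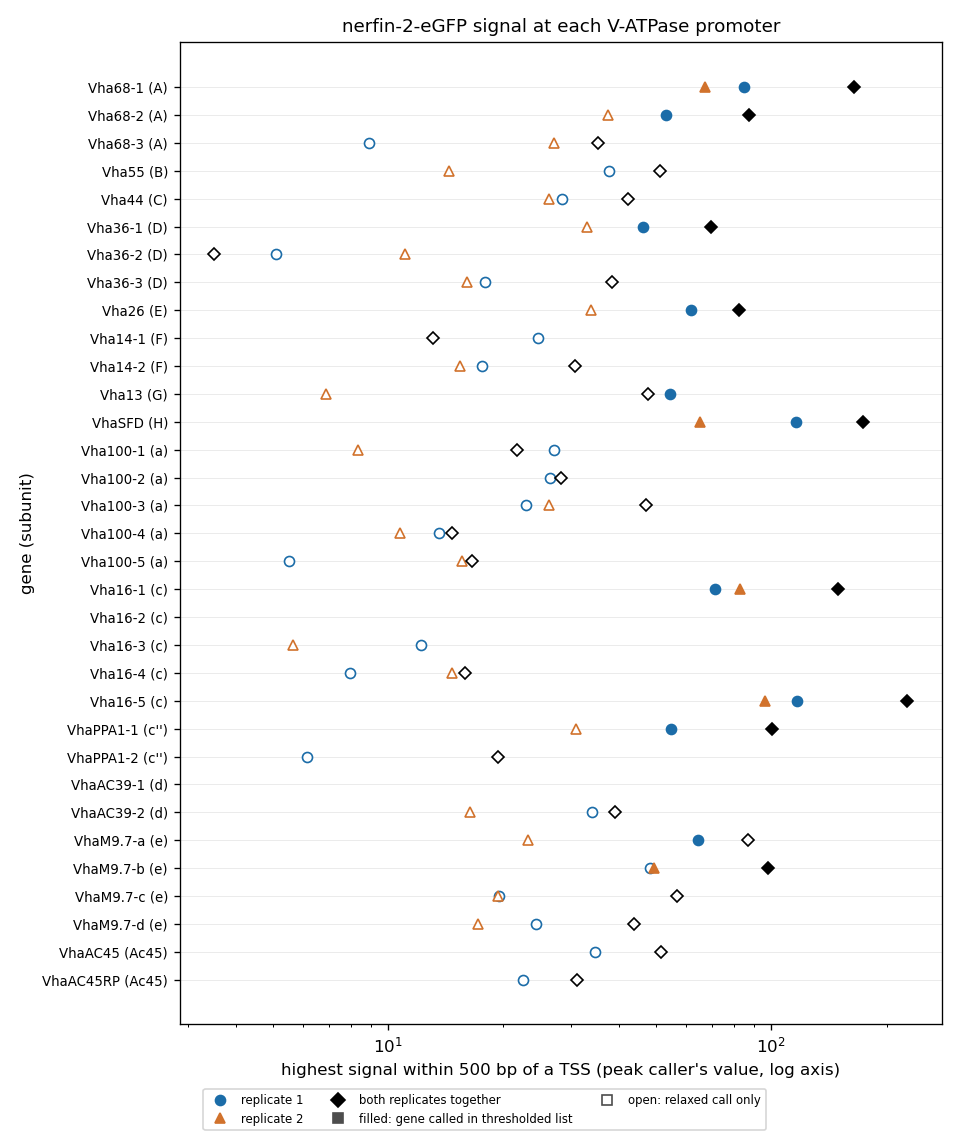
Each row is a V-ATPase gene with its subunit in brackets. The log axis gives the highest signal within 500 bp of a TSS in replicate 1 (circles), replicate 2 (triangles) and both together (diamonds). Circles and triangles are filled where that replicate's thresholded list called the gene, and diamonds where the conservative list did. Vha44, called in the second list alone, has only open symbols. Vha16-5 lies furthest right in each, while Vha16-2 and VhaAC39-1 have no symbol.

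Across the 9 called genes, the signal was higher in replicate 1 at 7 (77.8%), with a median ratio of replicate 1 to replicate 2 of 1.41 and a range from 0.863 at Vha16-1 to 1.83 at Vha26. Over the 2699 of 2709 genes with a conservative summit that had a call in both replicates, the signal was higher in replicate 1 at 78.4%, with a median ratio of 1.26. The signal was not rescaled between lists, so the ratio also carries any difference in scale between the replicates. At Vha68-2 the ratio of 1.42 takes its values from different summits. Outside Vha16-1 and VhaM9.7-b, the called members differed between replicates in the same direction as most genes did.

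The summits lay at a median of 82 bp from the V-ATPase start, beside 68 bp over all genes with a conservative summit. Of the 9 summits, 8 lay upstream of the nearest V-ATPase start site, 6 lay within 100 bp of it, and 7 were outside protein-coding genes. The exceptions were Vha36-1, whose summit lay 2 bp past its start in the 5′ untranslated region, and the Vha68-2 summit described above. The strongest calls of the replicates lay a median of 48 bp apart, and within 100 bp of each other at 7 of 9 genes. They lay 6 bp apart at Vha16-5, 167 bp at VhaPPA1-1 and 675 bp at Vha68-2, where each replicate had its highest signal at a different summit.

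Of the 9 summits, 5 lay within 500 bp of the start of a coding gene on the other strand (55.6%), beside 36.8% of all 2151 conservative promoter summits with coding starts on both strands. Among all members, 13 of 33 had such a neighbour within 500 bp (39.4%), beside 27.8% of all genes. At 3 of these 5 the neighbour's start was the nearer. The Vha16-5 summit lay 268 bp before Vha16-5 but 34 bp from the start of CG12299. The VhaM9.7-b summit lay 394 bp before VhaM9.7-b and 21 bp from COX8, a subunit of mitochondrial cytochrome c oxidase. The Vha26 summit lay 206 bp before Vha26 and 98 bp from noi, a splicing factor.

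At the other pair the conservative summit lay nearer the V-ATPase gene. The Vha68-1 summit lay 96 bp before Vha68-1 and 277 bp from the start of mTor, the kinase that lysosomal amino acid sensing acts on. The Vha36-1 summit lay 74 bp from the start of CG8187, but in replicate 1 the called summit was nearer CG8187, 26 bp from its start and 46 bp from that of Vha36-1. A peak list cannot say which of the genes on either side a summit acts on. The 4 summits with no other coding start in the window were those of VhaSFD, Vha16-1, VhaPPA1-1 and Vha68-2, of which VhaSFD had the highest signal. Both called copies outside the widely used set, Vha16-5 and Vha68-1, were among the shared summits.

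**Figure D4:**
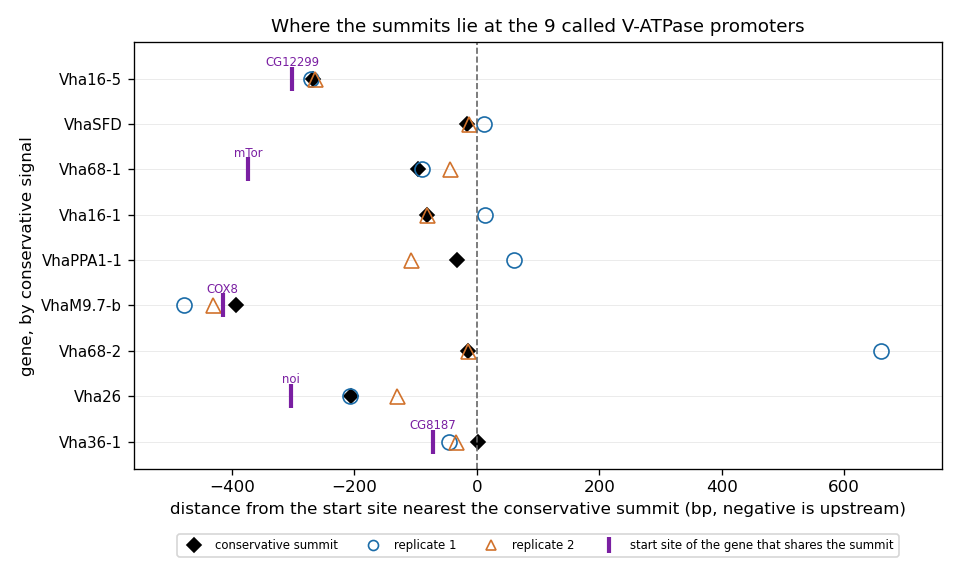
Each row is a called V-ATPase gene, and the axis gives the distance in bp from its start site nearest the conservative summit, with the strongest summit of each replicate as an open symbol and the start of a sharing gene as a bar. Vha16-5, VhaM9.7-b and Vha26 have their conservative summit nearer the neighbour's start, and at Vha68-2 replicate 1 is highest at the downstream summit.

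Motifs were counted on both strands as exact letters, first within 50 bp of the summits. TATCGATA was found at 1 of 9 V-ATPase summits, that of VhaSFD, beside 22.4% of the 2151 conservative promoter summits. ATCGAT, which lies inside TATCGATA, was found at 2 of 9, VhaSFD and Vha36-1, beside 45.6%. CACGTG, the E-box core of the element read by Mitf at lysosomal genes, was found at 0 of 9, beside 1.39%, and its longer form TCACGTGA at 0 of 9, beside 0.139%. GGTCACAC, a core promoter motif known as Ohler motif 1, was at 0 of 9, beside 3.58%.

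The same letters were then counted in each promoter from 250 bp before to 50 bp after the gene's start. TATCGATA was in 2 of 33 V-ATPase promoters, beside 9.36% of all promoters of that length, and ATCGAT in 10, beside 23.3%. The 10 were Vha13, Vha16-5, Vha26, Vha36-1, Vha55, Vha68-2, VhaAC45RP, VhaM9.7-a, VhaPPA1-2 and VhaSFD, of which 5 had a conservative summit. CACGTG was in 3, beside 4.23%, namely Vha44, VhaAC45RP and VhaM9.7-d, and none of these had a conservative summit. TCACGTGA was in Vha44 alone, beside 0.172% of all promoters. GGTCACAC was in 4, beside 7.70%, namely Vha100-1, Vha14-1, Vha26 and Vha68-2. The share of all promoters with these letters that had a conservative summit was not counted, so the called members among them have no background. The letters are a description of these windows and were not linked to any factor here.

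Other genes of the pathway were read from lists by the same rule, each beside the 19.4% of all genes. Of 4 genes of V-ATPase assembly and regulation, 1 had a conservative summit. It was Rbcn-3A, a subunit of the complex that assembles the pump, with signals of 153 in replicate 1 and 96.3 in replicate 2. Rbcn-3B, its partner, had relaxed calls of 35.1 and 29.98. Mitf, the transcription factor known to act on V-ATPase genes in flies, had 43.6 in replicate 1 and no call in replicate 2. ATP6AP2, an accessory subunit also named VhaM8.9 but not chosen by its symbol, had a conservative summit of 133 with 63.1 and 79.3 in the replicates.

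Of 9 matched genes of lysosomal amino acid sensing, 3 had a conservative summit, namely Lamtor3 (93.7), raptor (84.4) and Rheb (82.3), and none of the 9 was called in replicate 2 alone. The list's entry Tor was not matched by symbol. Read as mTor, whose start lies 277 bp from the summit it shares with Vha68-1, it makes the count 4 of 10, or 40.0%, and mTor was also called in replicate 2. Of 16 lysosome proteins, 5 did, led by the protease CtsF at 599 and the lysosomal transporter spin at 441, with Npc2a at 145 and Sap-r at 125. Both CtsF and spin exceeded every V-ATPase gene. Of 16 genes of the F-type ATP synthase, the mitochondrial relative of the V-ATPase, 5 had a conservative summit. They were led by ATPsynCF6 at 243, ATPsynF at 182, ATPsynbeta at 136 and ATPsyngamma at 81.5. The lists gave 25.0%, 33.3%, 31.2% and 31.2% in this order, with few genes in each. In replicate 2 alone the counts were 1 of 4, 0 of 9, 5 of 16 and 2 of 16, beside 13.6% of all genes.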

How the data were processed

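ChIP-seq peak lists of 2 biological replicates of 1 group were analysed on genome build dm6, per the labels. The deposited lists give a signal, which is the peak caller's value as the authors left it. The deposited score is a whole number, at least 830 in the thresholded lists, that rises as the irreproducible discovery rate falls. The relaxed ranked lists deposited by the authors also give its −log10 value, from which the rate was computed here. In the ranked lists across replicates, 8 columns each were not used. The sources used here name no aligner, peak caller or scaling of the signal, and depth is unknown.

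Summits on the main chromosome arms were matched with Python 3.11.15 to protein-coding TSSs of Ensembl 115 within 500 bp, and a summit counted for every gene in its window. The matching was tested on simulated peaks. Motif windows reached 50 bp to each side of a summit. Promoter and summit sequences were cut from the RefSeq Release 6 genome. Sequence is not shown for every called summit. The background is the percentage of all genes called by the same rule, and no test was made. The members, the lists and the set of widely used copies were chosen with earlier results of these data known.

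Every member is named or counted. Full values are given for members with a thresholded summit and for up to 5 uncalled members with the highest relaxed signal. Other genes are named where they share a summit, or where they lead a pathway list (up to 4 per list), and further genes named are those nearest a member, partners of a listed gene or uncalled genes chosen after their values were seen. The names Tor and FLCN in the amino acid sensing list were not matched by symbol; the count with mTor added and that with Vha100-2 and VhaAC45 moved were chosen after seeing the data. Figures were drawn with matplotlib 3.10.9.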

Additional observations from a re-analysis of the deposited data

How the results depend on the processing

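The count of 9 V-ATPase genes gave 7 with a window of 250 bp (21.2%, beside 16.9% of all genes), and 10 with 1000 bp, which added Vha13 (30.3%, beside 21.8%). It was 9 in the second list (27.3%, beside 21.4% of all genes), of which 8 were shared with the conservative list. It was 6 (18.2%) when a summit counted for the nearest TSS only, beside 14.5% of all genes, and 6 when the called interval had to overlap the TSS, beside 15.6%. Those 6 were the same genes in both settings and leave out Vha16-5, Vha26 and VhaM9.7-b. Leaving out each replicate in turn gave 5 to 10 V-ATPase genes, 3 to 7 widely used copies and 2 to 3 other copies. Replicate 2 alone gave the low counts, with 15.2% of V-ATPase genes beside 13.6% of all genes. Replicate 1 alone gave 30.3%, beside 18.0%. Among the 500 strongest peaks the counts were 0 V-ATPase genes, 0 widely used copies and 0 other copies, beside 4.72% of all genes. The count of 2 other copies fell to 1 with the 250 bp window, with the nearest TSS only and with interval overlap, since Vha16-5 was lost. In the same settings the count of 7 widely used copies fell to 6, 5 and 5. With the core ATCGAT in place of TATCGATA, 2 summits and 10 promoters held the motif, and with TCACGTGA in place of CACGTG, 1 promoter did. With mTor added, 4 amino acid sensing genes were called in place of 3, and moving Vha100-2 and VhaAC45 left the counts at 7 and 2, both chosen after seeing the data. No paired analysis was possible because the series has 1 group. With 2 replicates of unknown depth, a promoter that did not pass a list's threshold was not shown to be unbound. Each list's threshold decides the weaker calls, such as VhaPPA1-1.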

Other observations

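For several V-ATPase genes without a conservative summit, the nearest one lay at another gene outside the 500 bp window. The share of all uncalled genes with a conservative summit at such distances was not counted, so these distances have no background. The nearest conservative summit to Vha13 lay 634 bp from its start and 6 bp from that of Nup58, a nuclear pore gene, with a signal of 115. VhaAC39-2 had one 1394 bp away at unk, with a signal of 312, and VhaPPA1-2 had one 1648 bp away at CG3817, with a signal of 101. Vha100-1 lay 14808 bp from a strong summit of 495 at Atg14, an autophagy gene. At the other end, Vha55 lay 171191 bp and Vha14-2 223346 bp from any conservative summit. The nearest relaxed summits to Vha16-2 and VhaAC39-1, which had none within 500 bp, lay 781 bp and 769 bp away with signals of 18.4 and 38.5.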
